A study of Mus musculus with 3 samples.

Results

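The levels of 10 ion channel genes were described in a pooled single-cell expression matrix of the mouse mitral valve. These were the sodium channel genes Scn7a, Scn2a, Scn3a and Scn9a, the potassium channel genes Kcnh1, Kcnn3, Kcnt2 and Kcnk2, and the calcium channel subunit genes Cacnb2 and Cacnb4, out of 3265 genes listed. They were chosen by name, after measured levels in these same cells were known, so every value below is a description and carries no test. The 3 samples listed with the matrix are mitral valves taken at 12 weeks of age from mgR mice of strain B6.129-Fbn1tm2Rmz/J, which are homozygous for a hypomorphic allele of Fbn1, the gene of the microfibril protein fibrillin-1. All of these mice carry the allele in every tissue, and the labels list no control mice. The paper describes wild-type mice, mgR mice and mgR mice given rapamycin, as single cells and as single nuclei, and the barcodes name neither animal, genotype nor experiment. The matrix was therefore treated as 1 sample, and "cells" stands for barcodes of either kind.

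Voltage-gated ion channels open when the membrane potential changes and pass sodium, potassium or calcium ions. Sodium channels of the Scn family carry the upstroke of the action potential in nerve and muscle, potassium channels bring the membrane back towards rest, and the beta subunits of calcium channels bring the pore-forming subunit to the membrane and set its gating. Not every gene here is gated by voltage in the strict sense. Kcnn3 encodes the small-conductance potassium channel SK3, which calcium opens through calmodulin and which is known in endothelium for hyperpolarization. Kcnt2 encodes a potassium channel opened by sodium, Kcnk2 the tandem-pore leak channel TREK-1, which responds to stretch and lipids, and Scn7a the atypical sodium channel Nax, known as a sensor of extracellular sodium. Kcnh1 is a true voltage-gated channel of the ether-a-go-go group. Scn2a, Scn3a and Scn9a encode Nav1.2, Nav1.3 and Nav1.7, which are best known from neurons. Valve interstitial fibroblasts and the endothelium that covers the leaflet are not classed as excitable cells.

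All 10 genes lie on 3 chromosomes, as do the other listed genes that matched GENCODE M21 (GRCm38) by symbol. Kcnt2 (chr1:140246158-140612067, plus strand), Kcnk2 (chr1:189207930-189402273, minus strand) and Kcnh1 (chr1:192190774-192510159, plus strand) lie on chromosome 1. Chromosome 2 holds Cacnb2 (chr2:14603088-14987908, plus strand), Cacnb4 (chr2:52428320-52676831, minus strand) and the cluster of sodium channel genes. In that cluster Scn3a (chr2:65457118-65567627, minus strand) and Scn2a (chr2:65620771-65767447, plus strand) are 53.1 kb apart, and Scn9a (chr2:66480080-66634962, minus strand) and Scn7a (chr2:66673425-66784914, minus strand) are 38.5 kb apart. Kcnn3 (chr3:89520164-89675132, plus strand) lies on chromosome 3. Each position is the whole annotated gene, exons and introns together, and how reads were assigned to introns is not given in the sources used here.

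The promoters of 4 genes are shown, because these genes stood on either side of the split between fibroblast-like and endothelial-like cells described next. Each line gives the 100 bases before the RefSeq start (GRCm38.p6), read 5′ to 3′ on the strand of the gene, with CpG dinucleotides in capitals. The first pair was higher in fibroblast-like cells and the second pair in endothelial-like cells.
Scn7a, chr2:66784911-66785010, minus strand: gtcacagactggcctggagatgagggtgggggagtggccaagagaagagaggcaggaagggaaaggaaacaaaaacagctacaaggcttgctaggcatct
Kcnt2, chr1:140245618-140245717, plus strand: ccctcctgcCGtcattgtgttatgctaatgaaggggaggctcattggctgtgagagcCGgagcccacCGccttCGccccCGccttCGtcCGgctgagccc
Kcnh1, chr1:192190677-192190776, plus strand: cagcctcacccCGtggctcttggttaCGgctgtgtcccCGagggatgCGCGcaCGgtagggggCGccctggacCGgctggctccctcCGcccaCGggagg
Kcnn3, chr3:89520064-89520163, plus strand: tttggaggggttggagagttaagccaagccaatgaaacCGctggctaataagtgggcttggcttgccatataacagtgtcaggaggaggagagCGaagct
The Scn7a stretch holds 0 CpG, and those of Kcnt2, Kcnh1 and Kcnn3 hold 7, 10 and 2. Over the whole 250 bases before the start, the counts were 3 for Scn7a, 10 for Kcnt2, 17 for Kcnh1 and 10 for Kcnn3, against a median of 6 over 32851 RefSeq promoters. The TATA letters TATAAA, searched on both strands, are in 12.4% of those promoters and in none of these 4. RefSeq promoters were matched for 9 of the 10 genes, with 16 starts in all, and CpG content did not follow the split between cell types, since a gene of each side lies above the median.

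Cells were sorted by their own marker genes. Fibroblast-like cells (3149, 19.2% of 16383) had UMIs, the unique molecular identifiers that count transcripts, of at least 2 of Prrx1, Col3a1 and Dpt and none of Egfl7. Endothelial-like cells (8966, 54.7%) had a UMI of Egfl7 and fewer than 2 of the 3 fibroblast genes, and Ptprc cells (470, 2.87%) had a UMI of the leukocyte gene Ptprc and neither set of markers. Another 421 cells had both kinds of marker, and 3377 had no UMI of Egfl7 or Ptprc and fewer than 2 of the fibroblast genes, and these were kept apart. A level is a gene's summed UMIs in a group, scaled to 10000 UMIs of that group, with a 95% exact Poisson interval. Shares of cells were taken after each cell was thinned to 2000 UMIs, with 95% exact binomial intervals. Intervals and floors cover counting error only, not the spread between mice, and UMIs of a channel gene were often gathered in few cells. A level depends on the gene as well as on its expression in 3′ libraries, so each gene was compared between groups and not with other genes.

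Total UMIs per cell ran from 503 to 23127 with a median of 5349, and the medians of fibroblast-like, endothelial-like and Ptprc cells were 6063, 5365.5 and 4851. In file order the barcodes form an alphabetical run of 14222 cells and then another of 2161, which share 11 barcodes. What the runs are is not stated, and they are called run 1 and run 2 here. Markers outside the sorting rule followed the names of the 2 main groups to unlike degrees. Postn stood in endothelial-like cells at 76.8% of its level in fibroblast-like cells, and Prelp at 36.0%. The Prox1/Kif26b endothelial-like cells described below even had more Postn than fibroblast-like cells. Other markers were farther apart. The proteoglycan gene Fmod had a level of 0.255 in fibroblast-like and 0.011 in endothelial-like cells, Fap 2.83 and 0.104, and the endothelial gene Eng 1.26 and 12.3. Fbn1, the gene altered in the mice, had a level of 4.84 in fibroblast-like and 2.04 in endothelial-like cells, which checks no label, since wild-type cells could not be told apart. In Ptprc cells the macrophage gene Mrc1 had a level of 14.9 and the T cell gene Cd247 0.441, so that group is not of 1 leukocyte type.

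Fibroblast-like and endothelial-like cells differed by more than 2-fold in 7 of the 8 channel genes with at least 50 UMIs over both groups. Scn7a, Scn2a, Kcnt2, Kcnk2 and Cacnb2 were higher in fibroblast-like cells, Kcnh1 and Kcnn3 in endothelial-like cells, and Cacnb4 was within 2-fold. Of all 2605 genes with as many UMIs, 18.2% were at least 2-fold higher and 15.3% at least 2-fold lower in fibroblast-like cells. The median fibroblast-to-endothelial ratio of the 8 genes was 3.50 against 1.04 over all genes. The genes were picked for such differences, so nothing is read from these counts about channel genes as a class.

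**Figure D1:**
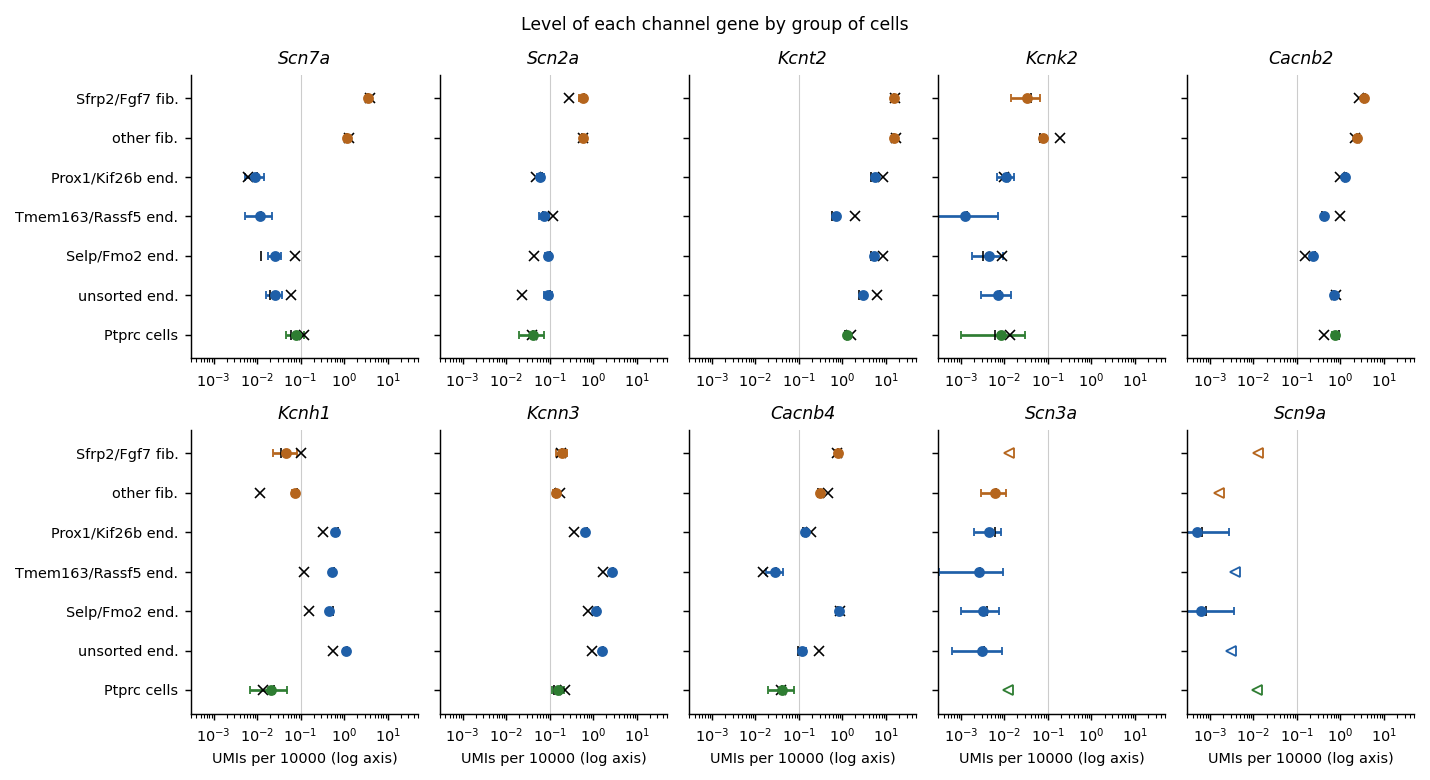
Levels of the 10 channel genes in 7 groups of cells, 1 panel per gene, as UMIs per 10000 on a log axis with 95% Poisson intervals. Brown points are the fibroblast-like groups, blue the endothelial-like groups and green the Ptprc cells, upright ticks and crosses are runs 1 and 2, open triangles mark 0 UMIs at the level of 3 counts, and the gray line marks 0.1. Scn7a runs from 0.00893 in Prox1/Kif26b endothelial-like cells to 3.59 in Sfrp2/Fgf7 fibroblast-like cells.

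Scn7a showed the widest ratio of the 10 genes between the cell types. Its level was 1.43 (1.38 to 1.49, 2999 UMIs) in fibroblast-like and 0.0171 (0.0138 to 0.021, 92 UMIs) in endothelial-like cells. That is 83.9-fold (68.1 to 104) higher in fibroblast-like cells, and 0.307% of the genes tested had a ratio at least as high. After thinning, 15.7% (14.5 to 17.1) of fibroblast-like cells had a UMI of Scn7a against 0.333% of endothelial-like cells. The transcripts were unevenly spread, since 1% of the fibroblast-like cells held 17.1% of their Scn7a UMIs and 1 cell held 29. The ratio was 108 in run 1 and 52.3 in run 2. The 92 endothelial UMIs came from 56 cells, of which 1 held 11.

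A gene known from Schwann cells moved with Scn7a. Cdh19, a cadherin of the Schwann lineage, had a level of 0.846 (0.807 to 0.886) in fibroblast-like and 0.0288 (0.0245 to 0.0337) in endothelial-like cells. Among thinned fibroblast-like cells, the 481 with Scn7a had a Cdh19 level of 1.23 (1.02 to 1.47), against 0.637 (0.570 to 0.709) in the 2576 without. Other markers were mixed. The cells with Scn7a had more of the fibroblast gene Col3a1 (8.38 against 5.47), while the intervals of Dpt (3.17 against 2.93) and Prrx1 (3.24 against 3.57) overlapped. They had more of the smooth muscle gene Lmod1 (0.457 against 0.148), and the mural gene Rgs5 stood at 0.0624 on 6 UMIs against 0.138. Leaving out every cell with Cdh19, which is 661 fibroblast-like cells (21.0%) and 57 endothelial-like cells (0.636%), gave a ratio for Scn7a of 85.0. Scn7a was thus also high in fibroblast-like cells in which Cdh19 was not detected.

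Scn2a was also higher in fibroblast-like cells, by less. Its level was 0.567 (0.535 to 0.60, 1185 UMIs) against 0.0772 (0.0699 to 0.085, 415 UMIs), a ratio of 7.35 (6.56 to 8.23). After thinning, 9.22% of fibroblast-like and 1.33% of endothelial-like cells had a UMI. The ratio was 6.79 in run 1 and 11 in run 2. Scn2a had similar levels in fibroblast-like cells with and without Scn7a, at 0.572 (0.431 to 0.744) and 0.534 (0.473 to 0.601) after thinning.

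The other genes of the cluster were close to the limit of detection. Scn3a had 40 UMIs over all cells, of which 11 came from 5 fibroblast-like cells and 19 from endothelial-like cells, and run 2 had none. The levels of 0.00526 and 0.00353 gave a ratio of 1.49 with an interval from 0.640 to 3.29, so no difference was detectable. Scn9a, the neighbour of Scn7a, had 2 UMIs in the whole matrix. Fibroblast-like cells had 0, which allows a level of up to 0.00143, while Scn7a in the same cells stood at 1.43.

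Kcnt2 was found in most fibroblast-like cells and in a large minority of endothelial-like cells. Its level was 15.3 (15.2 to 15.5, 32033 UMIs) against 4.34 (4.29 to 4.40, 23363 UMIs), a ratio of 3.53 (3.47 to 3.59). After thinning, 85.4% of fibroblast-like and 34.0% of endothelial-like cells had a UMI, and 1 fibroblast-like cell held 121. The ratio was 4.35 in run 1 and 2.13 in run 2, where the endothelial level was 7.93 against 3.49 in run 1. The size of this ratio therefore rested in part on which run was read, and its direction did not.

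Kcnk2, the stretch-sensitive leak channel, was rare and gathered in few cells. Its level was 0.0722 (0.0612 to 0.0847, 151 UMIs) in fibroblast-like and 0.00688 (37 UMIs) in endothelial-like cells, a ratio of 10.5 (7.29 to 15.5). After thinning, 1.21% of fibroblast-like cells had a UMI, and 1% of the fibroblast-like cells held 61.6% of the UMIs. The ratio was 9.41 in run 1, and in run 2 the levels were 0.154 and 0.00769.

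Kcnh1 was higher in endothelial-like cells. Its level was 0.644 (0.623 to 0.666, 3465 UMIs) there and 0.0708 (0.0598 to 0.0832, 148 UMIs) in fibroblast-like cells, which is 9.10-fold (7.72 to 10.8) higher in endothelial-like cells. After thinning, 8.07% (7.49 to 8.67) of endothelial-like and 1.18% (0.826 to 1.63) of fibroblast-like cells had a UMI. In run 1 the levels were 0.731 and 0.076, and in run 2 they were 0.283 and 0.028. The endothelial level thus differed between the runs by more than 2-fold while the difference between the cell types was present in both.

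Kcnn3, the SK3 channel, was higher in endothelial-like cells by a like factor. Its level was 1.29 (1.26 to 1.32, 6943 UMIs) against 0.143 (0.127 to 0.160, 298 UMIs), which is 9.06-fold (8.06 to 10.2) higher. After thinning, 16.9% (16.1 to 17.8) of endothelial-like and 2.29% (1.79 to 2.88) of fibroblast-like cells had a UMI. The endothelial level was 1.45 in run 1 and 0.646 in run 2, and the difference was 10.4-fold in run 1 and 3.64-fold in run 2. The heart muscle genes Ttn and Xirp2 moved with it. Of that list, 4 of the 5 genes are in the matrix, and their summed level was 1.52 in endothelial-like and 0.111 in fibroblast-like cells. Thinned endothelial-like cells with Kcnn3 had a Ttn level of 1.58 against 0.942 in those without, and an Xirp2 level of 0.524 against 0.291. The other 2 listed genes did not clearly follow. Tnnt2 stood at 0.0387 (0.0193 to 0.0692) against 0.0272 (0.0193 to 0.0374), and Mybpc3 at 0.00351 (1 UMI) against 0.00788 (11 UMIs). Without the cells that had Ttn or Xirp2, 2351 endothelial-like (26.2%) and 97 fibroblast-like (3.08%), Kcnn3 was 7.33-fold and Kcnh1 9.93-fold higher in endothelial-like cells. Among thinned endothelial-like cells, the 1423 with Kcnn3 had a Kcnt2 level of 2.20 (2.03 to 2.38) and the 6980 without it 4.88 (4.76 to 4.997), so Kcnt2 was lower in the cells in which Kcnn3 was found. Kcnh1 stood at 0.727 (0.632 to 0.833) in the cells with Kcnn3 and 0.626 (0.585 to 0.669) in those without.

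The calcium channel beta subunits differed from each other. Cacnb2, the main beta subunit of heart muscle, had a level of 2.55 (2.48 to 2.61, 5322 UMIs) in fibroblast-like and 0.735 (0.712 to 0.758, 3953 UMIs) in endothelial-like cells, a ratio of 3.46 (3.32 to 3.61). The ratio was 3.44 in run 1 and 3.31 in run 2. Cacnb4, a beta subunit best known from the brain, had levels of 0.355 (0.330 to 0.381) and 0.321 (0.306 to 0.337), a ratio of 1.10 (1.01 to 1.20). This even value over whole cell types covered wide differences inside each, given next.

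**Figure D2:**
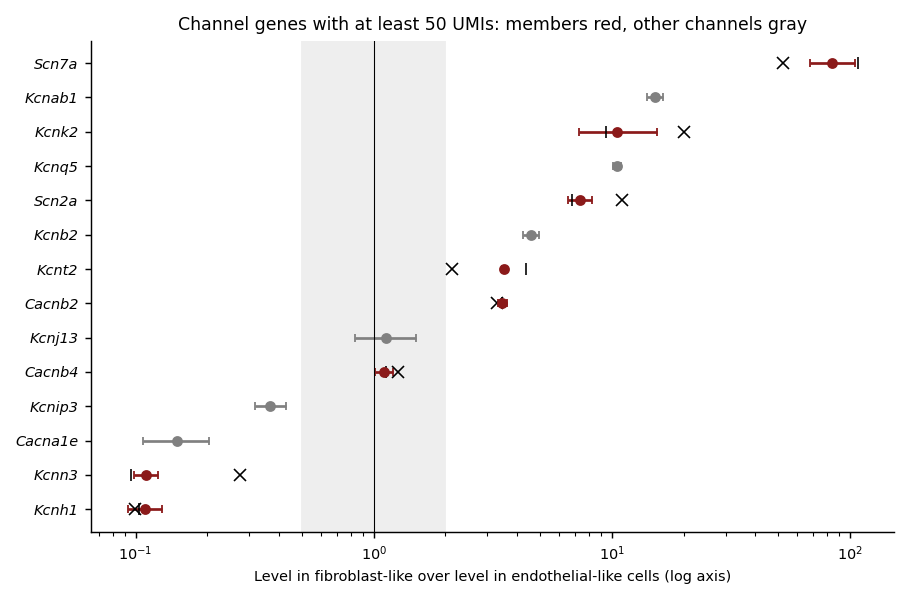
Ratio of the level in fibroblast-like to that in endothelial-like cells for 14 channel genes with at least 50 UMIs over both groups, on a log axis with 95% intervals. Chosen genes are red with ticks for run 1 and crosses for run 2, other channel genes are gray, and the shaded band marks ratios between 0.5 and 2. Scn7a lies farthest to the right at 83.9, and Kcnh1 and Kcnn3 lie farthest to the left.

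Fibroblast-like cells with a UMI of Sfrp2 or Fgf7 (307 cells) had more Scn7a and Cacnb4 than the other 2842. Sfrp2 encodes a secreted modulator of Wnt signaling and Fgf7 a growth factor made by stromal cells. Of the 8 channel genes with at least 50 UMIs, 2 were at least 2-fold higher and 1 at least 2-fold lower in this group, while over all 2191 genes 2.51% were higher and 4.15% lower. Scn7a had a level of 3.59 (3.36 to 3.84) against 1.16 (1.11 to 1.21), a ratio of 3.11 (2.87 to 3.36), and 35.5% (30.1 to 41.2) against 13.5% of thinned cells had a UMI. The ratio was 3.08 in run 1 and 3.06 in run 2. Scn7a stood at 3.29 in the 118 cells with Sfrp2 alone, 3.55 in the 170 with Fgf7 alone and 6.18 in the 19 with both. Cdh19 had a level of 1.14 in this group and 0.808 in the others, and without the cells with Cdh19 the ratio of Scn7a was 3.09.

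Cacnb4 had a level of 0.779 (0.671 to 0.899) in the Sfrp2/Fgf7 group and 0.301 (0.276 to 0.327) in the others, a ratio of 2.59 (2.18 to 3.06). It was 2.78 in run 1 and 1.57 in run 2, so in run 2 it did not reach 2-fold. Among thinned fibroblast-like cells, those with Scn7a had a Cacnb4 level of 0.811 (0.641 to 1.01) and those without 0.280 (0.236 to 0.329), so Cacnb4 was higher in the cells in which Scn7a was found. Cacnb2 moved the same way by less, at 3.47 against 2.43, a ratio of 1.43 (1.33 to 1.54). Kcnk2 was 2.29-fold (1.13 to 5.41) lower in the Sfrp2/Fgf7 group, which had 8 UMIs of it. In run 1 it was 1.63-fold lower, and in run 2 the group had 0 UMIs. Kcnt2 and Scn2a had ratios of 1.0 between the 2 fibroblast groups, with intervals from 0.966 to 1.04 and from 0.832 to 1.20. For Scn2a the runs differed, with 1.10 in run 1 and 0.486 (0.235 to 0.907) in run 2. The intervals of Kcnn3 (1.39, 0.987 to 1.91) and Kcnh1 (0.626, 0.305 to 1.16) spanned 1. Kcnh1 went in opposite directions in the runs, with 0.438 (0.173 to 0.927) in run 1. In run 2 it was 9.01 (1.29 to 99.6), on 4 UMIs against 2.

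Endothelial-like cells were split by the pair of genes with the most UMIs into Prox1/Kif26b (3323 cells), Tmem163/Rassf5 (1055 cells) and Selp/Fmo2 (2647 cells), and each group was set against the other 2. The remaining 1941 stayed unsorted, with none of the 6 genes in 1565 and a tie in 376. Prox1 encodes the transcription factor known from lymphatic and valve endothelium, and Selp the adhesion molecule P-selectin. A different channel gene was high in each group, namely Cacnb2, Kcnn3 and Cacnb4.

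Prox1/Kif26b cells had the highest Cacnb2. Its level was 1.25 (1.20 to 1.30) there, 0.420 (0.376 to 0.467) in Tmem163/Rassf5 and 0.239 (0.216 to 0.265) in Selp/Fmo2 cells. The ratio to the other groups was 4.19 (3.85 to 4.56), with 4.49 in run 1 and 3.30 in run 2. Over all endothelial-like cells, the level was 1.34 in the 575 with Kif26b alone and 1.35 in the 1518 with both genes, but 0.677 in the 2842 with Prox1 alone, so it followed Kif26b more than Prox1. Kcnn3 was 2.68-fold (2.51 to 2.85), Cacnb4 3.92-fold (3.45 to 4.47) and Scn7a 2.32-fold (1.33 to 4.23) lower in Prox1/Kif26b cells. Scn7a rested on 18 UMIs and on run 2, with a ratio of 0.806 in run 1 and 0.0986 in run 2. Postn, a matrix gene of valve interstitial cells, had a level of 7.82 in this group against 4.90 in fibroblast-like cells, and its part in the result was not tested. Of the 7 channel genes with enough UMIs 1 was at least 2-fold higher and 3 lower, and of all 2325 genes 3.44% and 6.19%.

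Tmem163/Rassf5 cells had the highest Kcnn3 and the lowest Kcnt2. Kcnn3 had a level of 2.77 (2.65 to 2.89) in them, 0.640 (0.606 to 0.676) in Prox1/Kif26b and 1.19 (1.13 to 1.24) in Selp/Fmo2 cells, and 36.0% (33.1 to 39.0) of the thinned cells had a UMI against 9.47% and 15.9%. The ratio to the other groups was 3.15 (2.98 to 3.32), with 2.9 in run 1 and 3.16 in run 2. Kcnt2 had a level of 0.706 (0.648 to 0.767) against 5.59 in Prox1/Kif26b and 5.43 in Selp/Fmo2 cells, and was 7.82-fold (7.19 to 8.53) lower, with 7.69-fold in run 1 and 4.52-fold in run 2. Cacnb4 was 15.8-fold (10.4 to 25.2) lower, on 22 UMIs. Of the 7 channel genes 1 was at least 2-fold higher and 2 lower, against 6.62% and 9.46% of all genes. Kcnh1 was within 2-fold over both runs, with a ratio of 0.969 (0.870 to 1.08). It was 0.891 in run 1 and 0.475 in run 2, the latter on 8 UMIs in this group. Cacnb2 was 1.92-fold (1.72 to 2.16) lower over both runs, but its ratio was 0.426 in run 1 and 1.56 in run 2, which are opposite directions. It also depended on the marker gene. Over all endothelial-like cells, the Cacnb2 level was 0.187 with Tmem163 alone, 0.681 with Rassf5 alone and 0.0732 with both. Where cells needed both genes of a pair, Cacnb2 was 12.3-fold lower, on 21 UMIs.

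Heart muscle genes were also highest in Tmem163/Rassf5 cells. The summed level of the heart muscle list was 3.41 in them, 1.07 in Prox1/Kif26b and 1.10 in Selp/Fmo2 cells. Xirp2 (1.81) and Ttn (1.56) made up most of it, while the defining genes Tnnt2 and Mybpc3 were at 0.038 and 0. Leaving out every cell with Ttn or Xirp2 removed 480 cells of this group (45.5%), 748 of the Prox1/Kif26b cells (22.5%) and 608 of the Selp/Fmo2 cells (23.0%). The ratio of Kcnn3 was then 3.53, Kcnt2 was 7.62-fold lower and Cacnb4 28.7-fold lower on 7 UMIs. Of 3 listed neuronal genes, 2 are in the matrix. Their summed level was 0.861 in Tmem163/Rassf5, 0.139 in Prox1/Kif26b and 0.403 in Selp/Fmo2 cells, and 0.540 in endothelial-like cells with none of the 6 genes. In Tmem163/Rassf5 cells nearly all of it was Stmn2, at 0.855, and the other neuronal gene was close to absent. The part of Stmn2 in these results was not tested.

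Selp/Fmo2 cells had the highest Cacnb4. Its level was 0.822 (0.778 to 0.868) there, 0.142 (0.126 to 0.160) in Prox1/Kif26b and 0.0280 (0.018 to 0.042) in Tmem163/Rassf5 cells, a ratio to the other groups of 7.46 (6.58 to 8.47). It was 8.50 in run 1 and 5.13 in run 2. Over all endothelial-like cells, the level was 0.257 in the 285 with Selp alone, 0.598 in the 2275 with Fmo2 alone and 1.01 in the 845 with both. Cacnb2 was 4.26-fold (3.82 to 4.75) lower, so the beta subunit genes stood in opposite order in Prox1/Kif26b and Selp/Fmo2 cells. Scn7a was 2.63-fold (1.57 to 4.45) higher on 40 UMIs, with a ratio of 1.13 in run 1 and 13.8 in run 2, so run 2 carried it. Of the 7 channel genes 2 were at least 2-fold higher and 1 lower, against 4.43% and 3.83% of all genes.

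Kcnh1 was highest in endothelial-like cells that none of the 6 genes marked. Its level was 1.26 (1.18 to 1.34) in them against 0.620 (0.586 to 0.655) in Prox1/Kif26b, 0.532 (0.482 to 0.585) in Tmem163/Rassf5 and 0.458 (0.425 to 0.492) in Selp/Fmo2 cells. After thinning, 14.7% (12.9 to 16.7) of them had a UMI against 5.67% to 7.50% in the 3 groups. These cells had a median of 4382 total UMIs, fewer than the 3 groups, and the part of depth in the result was not tested. The 3 pairs of genes thus do not follow the level of Kcnh1.

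**Figure D3:**
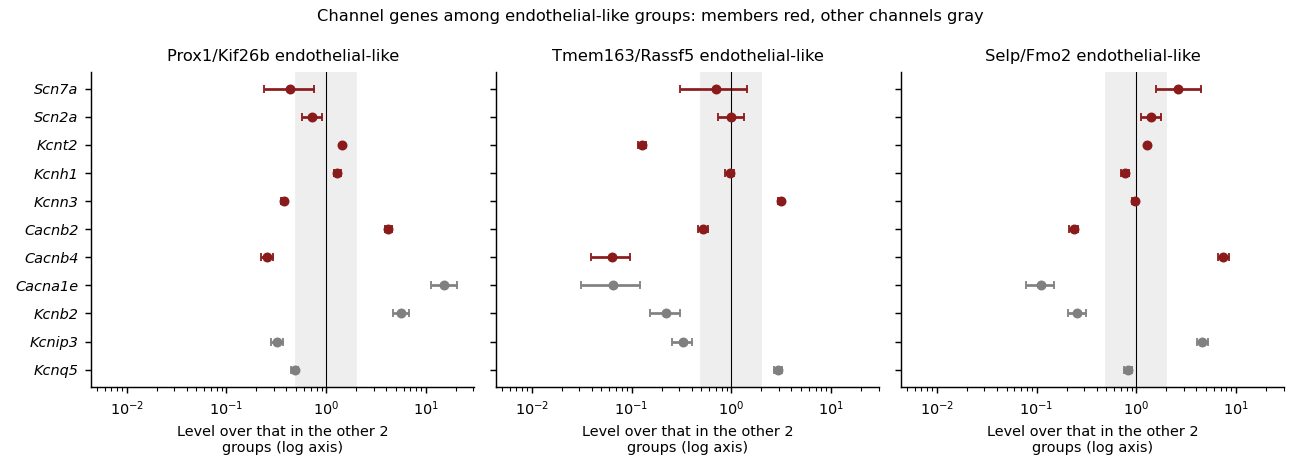
Ratio of each endothelial-like group to the other 2 groups for 11 channel genes, 1 panel per group, on a log axis with 95% intervals. Cacnb2 is high in Prox1/Kif26b cells (4.19), Kcnn3 in Tmem163/Rassf5 cells (3.15) and Cacnb4 in Selp/Fmo2 cells (7.46).

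Of the 8 channel genes with at least 50 UMIs, 7 were at least 2-fold lower in Ptprc cells than in fibroblast-like and endothelial-like cells together, and 0 were higher. Over all 2653 genes, 15.7% were at least 2-fold higher in Ptprc cells and 22.2% lower. Kcnh1 had 5 UMIs (level 0.0206) and was 23.5-fold (10.1 to 72.4) lower, Cacnb4 8.03-fold, Kcnn3 6.20-fold, Kcnt2 5.87-fold, Scn7a 5.29-fold and Scn2a 5.20-fold lower. Kcnk2 was 3.06-fold lower on 2 UMIs, with an interval from 0.835 to 25.4. Cacnb2 was the exception, with a level of 0.753 (0.648 to 0.871), close to that of endothelial-like cells, and 1.65-fold (1.42 to 1.92) lower than in both cell types together. Against each cell type alone, not every gene was lower. Scn7a stood at 0.0782 (0.0471 to 0.122, 19 UMIs) in Ptprc cells, above the 0.0171 of endothelial-like cells. Kcnn3 stood at 0.156 (0.111 to 0.215), close to the 0.143 of fibroblast-like cells. UMIs in a droplet can come from free RNA, so the Ptprc level was set against that of fibroblast markers in the same cells. Genes of fibroblasts stood in Ptprc cells at 7.43% (Col5a2) to 24.6% (Fap) of their level in fibroblast-like cells. Scn7a stood at 5.45%, Scn2a at 7.26%, Kcnt2 at 8.25%, Kcnk2 at 11.4% and Cacnb4 at 11.6%, all within or under that range. Cacnb2 stood at 29.6%, above it. Of the genes higher in endothelial-like cells, Kcnh1 stood in Ptprc cells at 3.20% and Kcnn3 at 12.1% of the endothelial level, where endothelial markers ranged from 7.51% (Eng) to 45.4% (Nostrin). Whether these low levels are free RNA or expression was not tested.

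**Figure D4:**
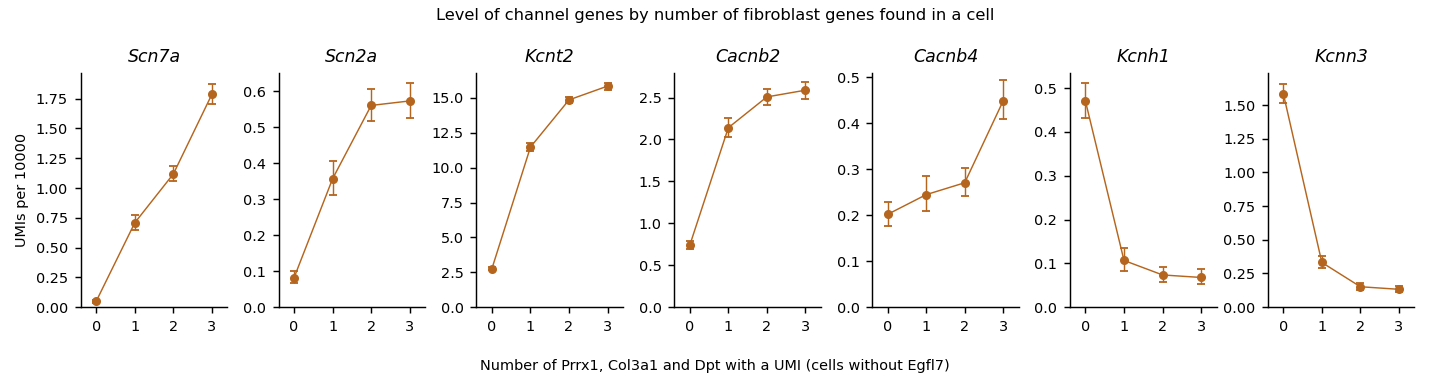
Level of 7 channel genes, as UMIs per 10000 with 95% Poisson intervals, in cells without Egfl7 that had UMIs of 0, 1, 2 or 3 of the fibroblast genes Prrx1, Col3a1 and Dpt, 1 panel per gene. Scn7a goes from 0.0498 at 0 genes to 1.79 at 3, and Kcnn3 from 1.59 to 0.132.

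The levels of several channel genes followed the number of fibroblast genes in cells without Egfl7. Cells with 2 or 3 of these genes are the fibroblast-like cells themselves. Those with 0 or 1 are the Ptprc cells and the cells that the sorting left aside. With 0, 1, 2 and 3 of the genes, Scn7a had levels of 0.0498, 0.708, 1.12 and 1.79. Kcnt2 had 2.76, 11.5, 14.9 and 15.8, and Cacnb2 0.738, 2.14, 2.51 and 2.59, both nearly level from 2 genes on, whereas Scn7a went on rising. Kcnn3 went the other way, with 1.59, 0.332, 0.152 and 0.132, and so did Kcnh1, with 0.470, 0.107, 0.0735 and 0.0678. Kcnk2 did not rise throughout, with 0.0160, 0.0630, 0.0935 (0.0763 to 0.113) and 0.0485 (0.0358 to 0.0644). The groups with 0 and 1 fibroblast genes hold 2486 and 1361 cells.

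Of 135 genes of the channel families written down for this comparison, 24 are in the matrix, and 14 of those are not among the 10. The listed genes that matched the annotation lie on chromosomes 1, 2 and 3 only. The absence of a family gene from the matrix is therefore not read as absence of expression. Of these 14, 7 had at least 50 UMIs over fibroblast-like and endothelial-like cells, of which 3 were at least 2-fold higher and 2 lower in fibroblast-like cells, with a median ratio of 1.12. The higher ones were all of voltage-gated potassium channels. Kcnq5, a channel of the M current, had levels of 6.89 and 0.658, a ratio of 10.5 (10.1 to 10.9). Kcnab1, a cytoplasmic beta subunit, had 2.30 and 0.152, a ratio of 15.1 (14.1 to 16.3). Kcnb2, a delayed rectifier, had 0.797 and 0.174, a ratio of 4.58 (4.22 to 4.96).

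The genes higher in endothelial-like cells were Kcnip3 and Cacna1e. Kcnip3, a calcium-binding protein that associates with Kv4 channels, had levels of 0.0961 and 0.261, which is 2.72-fold (2.34 to 3.16) lower in fibroblast-like cells. Like Cacnb4 it was highest in Selp/Fmo2 cells, at 0.563, with a ratio of 4.56 (4.02 to 5.18). Cacna1e, the pore-forming subunit of the R-type calcium channel, had levels of 0.0206 and 0.138, which is 6.71-fold (4.93 to 9.35) lower in fibroblast-like cells. Like Cacnb2 it was highest in Prox1/Kif26b cells, at 0.324, with a ratio of 15.1 (11.3 to 20.4), though its UMIs came from 220 endothelial-like cells and 1% of the endothelial-like cells held 79.5% of them. Kcnb2 was also higher in Prox1/Kif26b cells, by 5.64-fold (4.69 to 6.82), and Kcnq5 in Tmem163/Rassf5 cells, at 1.24 or 2.94-fold over the other groups. In Ptprc cells the inward rectifier gene Kcnj10 stood alone, with 55 UMIs, a level of 0.226 and a ratio of 94.0 (54.3 to 170) to fibroblast-like and endothelial-like cells together, and 3.61% of the thinned cells had a UMI.

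The pattern of each gene over 6 groups, the 2 fibroblast-like, the 3 endothelial-like and the Ptprc cells, was compared with that of all other genes with at least 200 UMIs, by Pearson's r of log2(level + 0.01). The 6 points come from the same libraries, and many genes reach a high r over so few points, so r is a description. For Scn7a, Msc (0.996) and Ggt7 (0.995) were among the most alike, with 179 genes over 0.9. For Scn2a they were BC034090, Dok5 and Gm26671, for Kcnh1 Tspan18, Anapc2 and Sox13, and for Kcnn3 Tubb4b, Igfbp5 and Stk35, with r from 0.989 to 0.996. For Kcnk2 they were Sclt1, R3hdm1 and Astn1 (0.985 to 0.969), and for Cacnb4 Gm14403, Gm13652 and Nr1h3 (0.980 to 0.966). For Kcnt2 the closest was 4930590L20Rik (0.990), then Prkci and Tmem9, and for Cacnb2 Sec16a (0.992), then Gm10848 and Gm13269. Scn3a and Scn9a had 27 and 2 UMIs in these groups, too few to rank genes by.

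Some of the closest genes overlap the channel gene on the opposite strand. The transcript 4930590L20Rik overlaps Kcnt2 and had levels of 0.230 in fibroblast-like, 0.0794 in endothelial-like and 0.0191 in Tmem163/Rassf5 cells, in the order of Kcnt2 itself. Gm10848 (0.0670 and 0.0188) and Gm13269 (0.0627 and 0.0169) overlap Cacnb2. Other overlapping genes did not follow their channel gene. Hhat, which overlaps Kcnh1, had 0.320 in fibroblast-like and 0.181 in endothelial-like cells. A430018G15Rik, which overlaps Cacnb4, had 0.0416 and 0.0149, and stood at 0.0210 (5 UMIs) in Sfrp2/Fgf7 and 0.0442 in the other fibroblast-like cells, the reverse of Cacnb4. Whether the counting kept strands apart is not given in the sources used here, so reads of such pairs may be shared.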

How the data were processed

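Single-cell RNA was captured in droplets (10x, 3′ libraries). According to the submitters' processing notes and the paper, the authors used Cell Ranger 7.1.0 with mm10, filtered cells and genes in Seurat and pooled their libraries. Each deposited value is the natural log of 1 plus a gene's UMIs scaled to 10000 per cell, and UMIs were recovered from it as whole numbers within 0.02. Counts were not modelled, since 1 pooled matrix without replicates allows no test. Of 3265 genes, 3264 had a value in every cell, with a median share of 15.7% of the UMIs per cell. No doublet caller was run.

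Ratios have intervals from the exact binomial distribution of the pooled UMIs, and a difference was counted when at least 2-fold in a gene with at least 50 UMIs over both groups. Thinning (seed 1) left out 92 fibroblast-like, 563 endothelial-like and 54 Ptprc cells below 2000 UMIs. A floor is 3 counts. The 10 genes, the lists and the groups were chosen with earlier results of these data known. Named genes are all 10, other family genes with 50 UMIs over the groups compared and a level of 0.1 in 1 group, and the 3 most alike genes of each, and some of these are not reported here. Alternatives were single runs, other marker rules, other minimum UMIs, a 3-fold limit and shares without thinning, and 5 were added after the data were seen. Steps were tested on simulated data with Python 3.11.15, numpy 2.4.6, scipy 1.17.1, pandas 2.3.3 and matplotlib 3.10.9.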

Additional observations from a re-analysis of the deposited data

How the results depend on the processing

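No paired analysis was possible because the barcodes cannot be tied to the 3 samples, and for the same reason no sample could be left out in turn. Counts of channel genes past 2-fold were recomputed under 121 alternatives, of which 112 stayed within 1.5 times the reported count. Of 360 recomputed log2 ratios, 258 lay within the interval of the reported value and 100 outside it, and 2 called ones turned. Without thinning, 39 of 60 shares of cells lay outside their interval, such as 55.4% in place of 35.5% for Scn7a in Sfrp2/Fgf7 cells. The 27 reported differences of the 10 genes were recomputed 210 times and kept their direction in 208, and 200 were still past 2-fold. Those that turned were Scn7a in Prox1/Kif26b cells, with a log2 ratio of 0.55 in place of -1.21, and in Selp/Fmo2 cells, with -0.60 in place of 1.39, both where cells needed both genes of a pair; the cause was not tested. Of the 10 genes, the count between the fibroblast-like groups went from 3 to 1 where both genes of a pair were needed and to 1 at a 3-fold limit, and that for Prox1/Kif26b cells from 4 to 2 at a 3-fold limit. Of the other channel genes, the count between the fibroblast-like groups went from 2 to 1 with all 3 fibroblast genes needed, to 0 at a 3-fold limit, to 4 with at least 10 UMIs and to 1 with at least 200 UMIs. For Prox1/Kif26b cells it went from 5 to 3 in run 1 alone and to 3 at a 3-fold limit. Set against all other endothelial-like cells, a comparison added after the data were seen, Scn7a in Selp/Fmo2 cells was 1.85-fold higher and no longer past 2-fold, while Kcnn3 in Tmem163/Rassf5 cells (2.67) and Cacnb4 in Selp/Fmo2 cells (7.28) were. The depth limits Scn3a, Scn9a, Kcnk2 and Scn7a in endothelial-like cells, and the missing tie to mice leaves the spread between animals unknown.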

Other observations

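Cells with UMIs of both Mlph and Pax3, genes known from pigment cells, and none of Egfl7 numbered 101 and had levels of channel genes that differed from those of the cells with neither gene. The cells were picked by these genes alone, and the values are a description. Kcnj13, an inward rectifier known from pigmented and epithelial cells, had a level of 3.27 (2.78 to 3.81) in them and 0.026 in the 15528 cells with neither gene, and 31.1% (21.8 to 41.7) against 0.413% of thinned cells had a UMI. Cacnb4 had 3.19 (2.71 to 3.72) against 0.305, Kcnq5 11.7 (10.8 to 12.7) against 2.62, and Kcnj10 0.301 (0.168 to 0.496) against 0.008 on 15 UMIs. Kcnq5 and Kcnj10 were also high in single groups, with 6.89 in fibroblast-like and 0.226 in Ptprc cells. Kcnt2 was lower, at 1.68 (1.34 to 2.08) against 7.09, and Cacnb2 stood at 0.120 against 1.22. Of the 159 Cacnb4 UMIs 1 cell held 43.

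Cells with both fibroblast and endothelial markers, 421 in number, had levels between the groups for Kcnt2 (11.3), Scn7a (0.728) and Kcnn3 (0.346), and a median of 8709 UMIs. The 3377 cells without Egfl7 or Ptprc and with fewer than 2 of the fibroblast genes, many of which had 1 of them, had Kcnt2 at 6.6, Kcnn3 at 1.28, Kcnh1 at 0.387 and Scn7a at 0.318.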
